A study of Mus musculus with 145 samples.

Results

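The 8 genes described here, *Pou5f1*, *Nanog*, *Sox2*, *Sall4*, *Utf1*, *Zscan10*, *Fbxo15* and *Nr0b1*, were named as core pluripotency factors and their partners and were taken from the 28692 genes of the single-cell count tables. *Pou5f1* (also known as *Oct4*), *Sox2* and *Nanog* were taken as the core, and the other 5 as partners, and 20 further pluripotency genes and 11 paralogues of *Pou5f1*, *Sox2* and *Sall4* were counted beside them. All 8 passed the filter on low counts in 7 of the 8 comparisons, and *Pou5f1* was not tested in the remaining one.

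Spermatogonial stem cells (SSCs) of male B6D2F1 mice (C57BL/6 female by DBA/2 male, written DBA in the labels) carrying an *Oct4*-EGFP transgene were taken at postnatal day 5.5, cultured with EGF, bFGF, GDNF and ESGRO, and left to reprogram without added chemicals from day 0 to day 27. This original condition gave 46 libraries by modified STRT-seq, a plate method that counts unique molecular identifiers (UMIs), and 1 library each came from germline-derived pluripotent stem cells (the line gPSC-1) at passage 1, from the same line at passage 15, both kept in 2iL medium, and from F1 embryonic stem cells (ESCs). Another experiment measured RNA by scTrio-seq2 in 8 samples induced with the cocktail 5C (SGC707, vitamin C, EGCG, Daphnetin and TUDCA) on days 12, 14 and 16 and in 5 samples induced with DMSO, the solvent, on days 20 and 24, with 8 cells of day 0 in DMSO sample 5. Treatment and day therefore cannot be told apart. Cells were picked by hand from SSC-like and pluripotent-like colonies, so a number of cells describes what was picked, and the labels do not say which libraries came from separate cultures, so that p-values measure the spread between libraries only.

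Cell classes were those the authors gave to the same transcriptomes, so each comparison of classes is a description of them. The authors named them with marker genes that include *Pou5f1*, *Nanog* and *Sox2*. Differences of these genes between classes, and their p-values, are therefore in part given in advance. SSC1-4 (2265 cells) are spermatogonial, RPG1, RPG2, RPG3 and RPG4 (333, 47, 261 and 33 cells) are the reprogramming steps of the branch with pluripotent features, and early-pluripotent 1 and 2 (196 cells) lie on another branch. Counts were summed per library wherever it held at least 5 cells of a class, which gave 36 sums of SSC1-4, 7 of RPG1, 3 of RPG2, 8 of RPG3, 2 of RPG4 and 3 of the early-pluripotent cells. Libraries held 10833720 to 34609591 UMIs from 32 to 96 cells and scTrio-seq2 samples 3888311 to 10723044 UMIs, and all libraries drew on 1 set of 96 cell barcodes. The 8 spermatogonial markers of the list (*Zbtb16*, *Dazl*, *Ddx4*, *Gfra1*, *Etv5*, *Id4*, *Dmrt1* and *Sohlh1*) summed to 1409 to 2842 CPM (UMIs scaled to a common total, with TMM) in SSC1-4, 1583 to 1906 in RPG1, 444 to 566 in RPG2 and 244 to 283 in RPG4. The 8 markers of feeder fibroblasts summed to 6.18 to 170 CPM in SSC1-4, 30.8 to 63.7 in RPG1 and 4.45 to 13.3 in RPG2. The 8 pluripotency markers outside the members (*Zfp42*, *Esrrb*, *Dppa5a*, *Tdgf1*, *Lin28a*, *Dppa4*, *Gdf3* and *Tfcp2l1*) summed to 308 to 719 CPM in RPG1. Their sums lay between 1891 and 3107 CPM in RPG2, between 2625 and 3916 CPM in RPG3, and between 801 and 844 CPM in RPG4. RPG1 thus still carried spermatogonial markers, and 6 of the 8 fell from RPG1 to RPG2.

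Pluripotency rests on a small set of transcription factors that bind together and maintain one another's expression. The POU factor OCT4 and the HMG-box factor SOX2 bind neighbouring half-sites, and NANOG joins them at many of the same enhancers. SALL4 is a zinc finger factor that is also present in spermatogonia, UTF1 binds chromatin, ZSCAN10 is a zinc finger partner of the core, NR0B1 (DAX1) is an orphan nuclear receptor that binds OCT4, and *Fbxo15* encodes an F-box protein and is a classical reporter target of OCT4 and SOX2.

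The promoters of the 3 core genes are shown because the proximal promoter of *Nanog* is known to carry neighbouring octamer and SOX elements, while *Pou5f1* and *Sox2* are also controlled from enhancers outside such a window. They were taken from RefSeq on GRCm38.p6, from 250 bases before to 50 after the transcription start, on the plus strand, with capitals marking the POU octamer core, written TTTGCAT, and the SOX core, written ACAATG. Each was searched on both strands, so the octamer core may appear as ATGCAAA.
Nanog, chr6:122707315-122707614: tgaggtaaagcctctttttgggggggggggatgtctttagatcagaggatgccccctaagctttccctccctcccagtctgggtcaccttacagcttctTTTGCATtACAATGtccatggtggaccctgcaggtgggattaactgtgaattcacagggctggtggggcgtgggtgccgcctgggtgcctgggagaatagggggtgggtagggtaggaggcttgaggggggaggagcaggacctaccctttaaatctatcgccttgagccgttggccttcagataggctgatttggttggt
Sox2, chr3:34649745-34650044: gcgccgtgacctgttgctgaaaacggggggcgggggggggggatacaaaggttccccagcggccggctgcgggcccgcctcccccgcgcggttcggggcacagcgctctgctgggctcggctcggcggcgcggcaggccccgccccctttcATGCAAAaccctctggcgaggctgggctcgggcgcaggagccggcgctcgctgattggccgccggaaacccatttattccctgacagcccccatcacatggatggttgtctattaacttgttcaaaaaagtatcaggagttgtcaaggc
Pou5f1, chr17:35505782-35506081: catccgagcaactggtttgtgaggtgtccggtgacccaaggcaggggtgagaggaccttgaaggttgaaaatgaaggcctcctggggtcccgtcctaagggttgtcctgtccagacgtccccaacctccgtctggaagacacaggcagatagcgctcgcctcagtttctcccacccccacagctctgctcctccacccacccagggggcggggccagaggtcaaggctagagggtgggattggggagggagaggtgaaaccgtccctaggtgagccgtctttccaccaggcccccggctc
The *Nanog* window held both motifs with 1 base between them, TTTGCAT from base -151 and ACAATG from base -143, and the other *Nanog* start in RefSeq placed the same pair at -75 and -67. *Sox2* held the octamer core on the other strand, from base -99, and the *Pou5f1* window shown held neither, while a window at another *Pou5f1* start, within the gene, held ACAATG from base -158. TTTGCAT occurs in 4.63% and ACAATG in 12.6% of the 32851 promoters of this length, and the windows of *Utf1*, *Zscan10* and *Nr0b1* held neither. The full octamer ATGCAAAT was in 1.74% of all promoters and in none of these 8 windows of 6 genes, and a match is a run of letters and not a binding site. Of the 8 genes, 7 are placed here, at chr2:168748332-168767201 (*Sall4*), chr3:34649995-34652461 (*Sox2*), chr6:122707489-122714633 (*Nanog*), chr7:139943856-139945112 (*Utf1*), chr17:23600826-23611019 (*Zscan10*), chr17:35506032-35510777 (*Pou5f1*) and chrX:86191775-86195947 (*Nr0b1*).

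Stretches of at least 200 bases with at least 90% identity elsewhere in the genome were found in 3 of the transcripts. *Nanog* had 2066 such places, the longest of 1325 of its 2211 bases at 97.4%. *Pou5f1* and *Sall4* had 1 each, of 385 of 1362 bases at 100% and 467 of 5073 bases at 90.2%. The other 5 have none. How reads with several positions were counted is not given in the sources used here, so the counts of *Nanog*, *Pou5f1* and *Sall4* are less certain than the rest.

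SSCs did not start from zero for all members. Over the 36 libraries with SSC1-4 cells, *Sall4* ranged from 74.2 CPM with a median of 123 to 224, *Utf1* from 1.24 with a median of 48.0 to 157, *Fbxo15* from 0 with a median of 28.5 to 54.8, and *Sox2* from 0 with a median of 15.7 to 96.8. *Pou5f1* had a median of 2.53 (0 to 33.5), *Zscan10* of 3.20 (0 to 11.6) and *Nanog* of 0.663 (0 to 23.8), and *Nr0b1* was at 0 in 21 of the 36 libraries and reached 3.06 CPM at most. The highest *Pou5f1* and *Sox2* sums came from libraries with 7 and 8 SSC1-4 cells. The plot of levels by class shows these values beside the later classes.

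**Figure D1:**
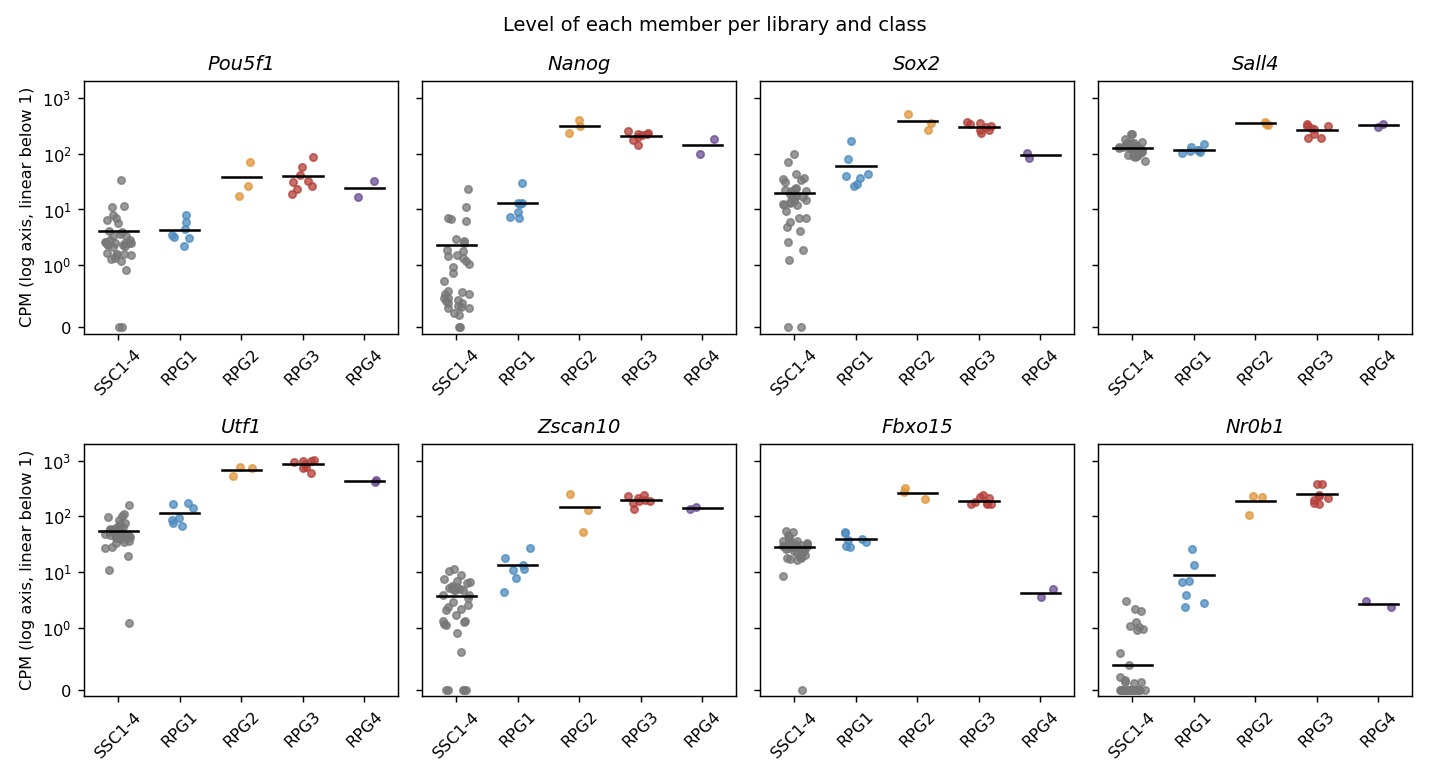
Level of each of the 8 genes in CPM (TMM scaled, log axis that is linear below 1). Each point is 1 library with at least 5 cells of the class and the line is the mean. All 8 genes stand higher in RPG2 and RPG3 than in RPG1, and *Fbxo15* and *Nr0b1* drop to 4.30 and 2.74 CPM in RPG4.

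Which members differ at the first step of the authors' order was asked by comparing RPG1 with SSC1-4. The authors inferred this order of classes, and it is not the order of the sampling days. Among the core factors *Nanog* and *Sox2* rose in RPG1 and *Pou5f1* was not called. *Nanog* stood at 12.3 and 29.4 CPM in the libraries of day 18 (replicates 3 and 5), 13.3, 9.15 and 7.03 in those of day 20 (1, 2 and 8) and 7.25 and 13 in those of day 23 (1 and 2), a mean of 13.1 ± 7.66 CPM (SD, n = 7) against 2.28 ± 4.38 (n = 36) in SSC1-4. This gave a log2 fold change of 2.56 (SE 0.57, edgeR adjusted p = 0.00347), and the ranges of the 2 classes overlapped. *Sox2*, in the same order, had 169, 79.1, 28.3, 43.4, 40.2, 26.7 and 36.5 CPM against a mean of 19.6 ± 19.5, a log2 fold change of 1.68 (SE 0.41, adjusted p = 0.0072). Its 2 highest values are the libraries of day 18. *Pou5f1* had 3.25, 8.11, 5.94, 3.55, 3.04, 2.25 and 4.42 CPM, a mean of 4.37 ± 2.03 against 4.09 ± 5.70, with a log2 fold change of 0.14 (SE 0.48, adjusted p = 0.921).

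Of the 5 partners, *Nr0b1* showed the largest fold change. It stood at 13.7, 26.1, 3.96, 6.67, 2.4, 2.84 and 6.95 CPM in the same 7 libraries against a mean of 0.400 ± 0.735 CPM in SSC1-4, a log2 fold change of 4.37 (SE 0.74, adjusted p = 9.70e-05). *Zscan10* had 18.1, 26.9, 10.8, 11.4, 4.48, 7.73 and 13.7 CPM against 3.69 ± 3.04, a log2 fold change of 1.76 (SE 0.44, adjusted p = 0.00901). *Utf1* passed the p threshold with a fold below the 2.72-fold required (log2 fold change 1.08, SE 0.26, adjusted p = 0.00576; 67.8 to 175 CPM in RPG1). *Fbxo15* had a log2 fold change of 0.43 (adjusted p = 0.273) and *Sall4* of -0.09 (adjusted p = 0.808). In all, 4 of the 8 members were called higher and 0 lower, where 0.461% of the 16472 genes tested were called higher and 0.51% lower, and the median log2 fold change was 1.38 over the members and -0.03 over all genes.

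The 4 calls in RPG1 were not kept against every choice of SSC1-4 libraries. All 7 RPG1 sums came from libraries that also held at least 5 RPG3 cells, whereas 31 of the 36 SSC1-4 sums came from libraries without any RPG2, RPG3 or RPG4 cell. In the 4 SSC1-4 libraries with at least 5 such cells, *Nanog* stood at 23.8, 6.93, 6.63 and 6.22 CPM, a mean of 10.9 that rests on the first of them (day 14 replicate 5) and a median of 6.78, against a mean of 1.16 and a median of 0.545 in the 31. As means, *Nr0b1* had 1.91 against 0.217 CPM, *Sox2* 29 against 17.6, *Utf1* 82.1 against 50.9 and *Zscan10* 5.64 against 3.56, while *Pou5f1* had 1.68 against 4.54. Against these 4 libraries 0 members were called (edgeR log2 fold change of *Nr0b1* 2.22, adjusted p = 0.269, of *Zscan10* 1.25, adjusted p = 0.365, of *Sox2* 1.06, adjusted p = 0.398, and of *Nanog* 0.25, adjusted p = 0.905). This fit called 0 of 14696 genes in all (1543 at an unadjusted p under 0.05), so that the loss was not particular to the members. With 4 SSC1-4 libraries in place of 36, the choice of cells and the smaller number of libraries cannot be told apart. With the library as a block, which uses the pair of libraries that held both classes, 0 were called either, of 1 among 13857 genes, with log2 fold changes of 0.32 for *Nr0b1*, 0.16 for *Nanog* and 0.20 for *Sox2*. Within batch B1 1 member was called (of 58 genes) and within batch B2 0 (of 3 genes), and without the library of day 18 replicate 5 only *Nr0b1* was. Without day 18 replicate 3 or day 20 replicate 2, 2 members were called. What part the other cells of a library play in the level measured in its SSC1-4 and RPG1 cells was not tested.

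All 8 members stood higher in RPG2 than in RPG1. The 3 libraries with RPG2 cells, day 12 replicate 2 (8 cells) and day 14 replicates 5 and 6 (15 and 21 cells), had *Nanog* at 232, 407 and 314 CPM, and no RPG1 library exceeded 29.4. Its log2 fold change of 4.64 (SE 0.34, adjusted p = 2.55e-08) was the largest of the members. *Sox2* had 260, 355 and 516 CPM (log2 fold change 2.67, SE 0.43, adjusted p = 0.000119). *Pou5f1* had 72.3, 17.1 and 26.1 CPM (3.17, SE 0.50, adjusted p = 9.19e-05) and so differed more between libraries than the other core factors. None of the 3 core genes overlapped between RPG1 and RPG2, nor did the other 5 members, and 12.9% of the genes tested stood higher in RPG2 without overlap.

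The partners followed in the same step. *Nr0b1* reached 229, 104 and 226 CPM (log2 fold change 4.44, SE 0.53, adjusted p = 6.71e-06) and *Zscan10* 52.9, 129 and 251 CPM (3.47, SE 0.44, adjusted p = 1.11e-05). *Fbxo15*, not called in RPG1, reached 206, 272 and 323 CPM (2.81, SE 0.22, adjusted p = 4.77e-08), *Utf1* 529, 724 and 760 CPM (2.57, SE 0.25, adjusted p = 5.53e-07) and *Sall4* 373, 342 and 333 CPM (1.58, SE 0.16, adjusted p = 7.11e-07). *Sall4*, already abundant in SSCs, changed least. Here 7.22% of 14393 genes were called higher and 8.92% lower, and the median log2 fold change was 2.99 over the members and -0.06 over all genes. RPG2 came only from days 12 and 14 of batch B2 and RPG1 from days 18 to 23 of both batches, and within batch B2 4 of the 8 were called (*Nanog*, *Utf1*, *Fbxo15* and *Nr0b1*), where the calls over all genes went from 2323 to 398. With batch as a covariate (RPG2 lies in B2 alone) 6 were called (1253 over all genes), *Pou5f1* (2.79, adjusted p = 0.0172) missing the p threshold and *Sall4* (1.43) the fold.

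By edgeR, no member was called between RPG2 and RPG3, where 0.654% of 13611 genes were called higher and 0.375% lower, while 4 members and 2612 genes had an unadjusted p under 0.05 and DESeq2 also called 0 members. The values of RPG3 (8 libraries; lowest, median and highest) were 142, 219 and 252 CPM for *Nanog*, 231, 309 and 362 for *Sox2*, 19, 31.2 and 87.3 for *Pou5f1*, 190, 280 and 346 for *Sall4*, 601, 907 and 1005 for *Utf1*, 137, 191 and 242 for *Zscan10*, 163, 176 and 245 for *Fbxo15* and 165, 222 and 388 for *Nr0b1*. *Nanog* had the lowest adjusted p, at a log2 fold change of -0.62 (SE 0.18, adjusted p = 0.0632), and *Pou5f1* stood at 0.00 with an SE of 0.52, so that its difference is known only within wide limits.

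In RPG4, a class of 33 cells with 2 libraries of at least 5, the members parted. *Nr0b1* fell to 2.4 and 3.08 CPM in the libraries of day 20 (replicates 1 and 2), a log2 fold change of -6.35 (SE 0.48, adjusted p = 1.83e-07), and *Fbxo15* to 3.59 and 5.00 CPM (-5.33, SE 0.32, adjusted p = 8.48e-09), below its level in RPG1 and in most SSC1-4 libraries. *Sox2* fell to 102 and 84.0 CPM (-1.61, SE 0.20, adjusted p = 5.88e-05). In 1 fit over all classes *Sox2* kept its direction (-1.71, adjusted p = 0.232) and was not called. *Utf1*, at 457 and 408 CPM, passed the p threshold but not the fold (-0.89, adjusted p = 0.00201).

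*Nanog* had 185 and 96.9 CPM in RPG4, *Pou5f1* 32.3 and 16.7, *Zscan10* 134 and 147 and *Sall4* 307 and 341, with adjusted p of 0.237, 0.525, 0.28 and 0.273. Thus 3 of 8 members were called lower and 0 higher, against 2.04% and 1.19% of 14600 genes, with a median log2 fold change of -0.74 over the members and -0.10 over all genes. With 2 libraries the spread in RPG4 is taken mainly from the other libraries of the fit.

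The level of each gene as a percent of its own mean in RPG3 gives an order that does not depend on how well a transcript is captured. In RPG1 it ran from *Sall4* (44.6 ± 5.81%, SD over 7 libraries) over *Fbxo15* (20.1 ± 4.96%), *Sox2* (19.9 ± 16.7%), *Utf1* (13.4 ± 5.18%), *Pou5f1* (11 ± 5.12%), *Zscan10* (6.81 ± 3.77%) and *Nanog* (6.25 ± 3.66%) to *Nr0b1* (3.60 ± 3.41%). Only the step from *Sall4* to *Fbxo15* exceeded the SDs, and every other neighbour in this order lay within them. The SSC1-4 values were 47.9% for *Sall4*, 14.7% for *Fbxo15*, 10.3% for *Pou5f1*, 6.44% for *Sox2*, 6.30% for *Utf1*, 1.89% for *Zscan10*, 1.09% for *Nanog* and 0.161% for *Nr0b1*, so the genes nearest to their RPG3 level in RPG1 were mostly those that SSCs already transcribed. In RPG2 *Nanog* was at 152 ± 42.0% (n = 3), *Fbxo15* at 139%, *Sall4* at 131%, *Sox2* at 124%, *Pou5f1* at 97.1 ± 74.7%, *Utf1* at 77.9%, *Nr0b1* at 75.2% and *Zscan10* at 73.8 ± 51.0% of RPG3.

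**Figure D2:**
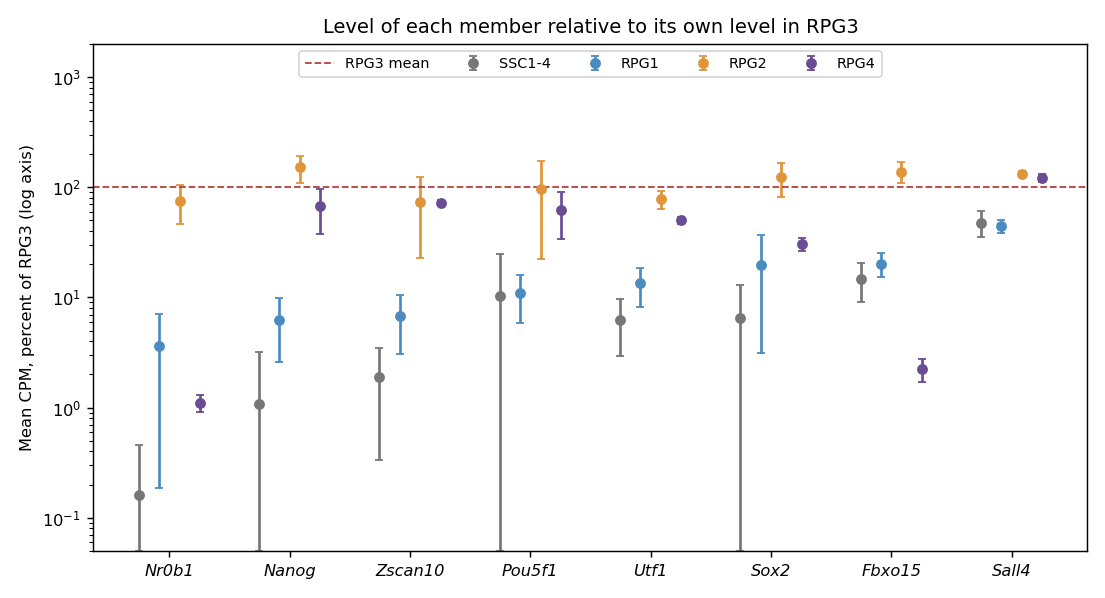
Mean CPM of each gene in SSC1-4, RPG1, RPG2 and RPG4 as a percent of its own mean in RPG3 (dashed line), on a log axis. Bars are 1 SD over libraries (n = 36, 7, 3 and 2) and are cut at 0.05 where the SD exceeds the mean. RPG2 lies between 73.8% and 152% for all 8 genes, and in RPG4 *Fbxo15* and *Nr0b1* lie at 2.23% and 1.10%.

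The comparison can also be made inside a library, since each of the 7 RPG1 libraries held RPG3 cells. There the RPG1 level was 45.6% of RPG3 for *Sall4* (median of 7 libraries, 37.7 to 55.8), 20.9% for *Fbxo15* (16 to 22.9), 14.1% for *Pou5f1* (6.23 to 30.8), 13.2% for *Sox2* (8.49 to 62.6), 11.1% for *Utf1* (7.92 to 17.6), 6.16% for *Zscan10* (3.27 to 11.4), 5.72% for *Nanog* (3.13 to 11.6) and 2.86% for *Nr0b1* (1.2 to 7.92). In the 2 libraries that also held SSC1-4 cells, day 20 replicate 8 and day 23 replicate 1, *Nanog* in SSC1-4 stood at 2.95 and 3.09% of RPG3 and in RPG1 at 3.13 and 3.60%. *Sox2* stood at 11.4 and 7.49% in SSC1-4 and 13.2 and 8.49% in RPG1, and *Nr0b1* at 1.34 and 0.839% in SSC1-4 and 1.46 and 1.2% in RPG1. *Zscan10*, the other gene called across libraries, stood at 6.45 and 3.07% in SSC1-4 and 3.27 and 4.49% in RPG1, so the 2 libraries differed in which class was higher. The block fit on these 2 pairs gave an adjusted p of 0.998 for each of the 4 (edgeR), with SEs of 0.37 for *Sox2* to 1.63 for *Nr0b1* on the log2 scale, so that differences of such size could not be told from none.

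Co-expression was described per cell after thinning every cell to 100000 UMIs, which left out cells below that depth. A cell of SSC1-4 had a median of 3 of the 8 members (1880 cells), of RPG1 5 (285 cells), of RPG2 7 (44 cells), of RPG3 8 (243 cells) and of RPG4 6 (32 cells), and both gPSC passages and ESCs had 8. All 8 were found in 0 of 1880 SSC1-4 cells, which allows up to 0.160% of cells with a UMI of each at this depth (counting error only, with cells of a library not independent), in 14 of 285 RPG1 cells (4.91%), 16 of 44 RPG2 cells (36.4%), 158 of 243 RPG3 cells (65.0%), 3 of 32 RPG4 cells (9.38%) and 36 of 42 ESCs (85.7%). SSC1-4 cells of day 0 had a median of 2 (70 cells). Cells are not replicates, and these counts carry no test.

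**Figure D3:**
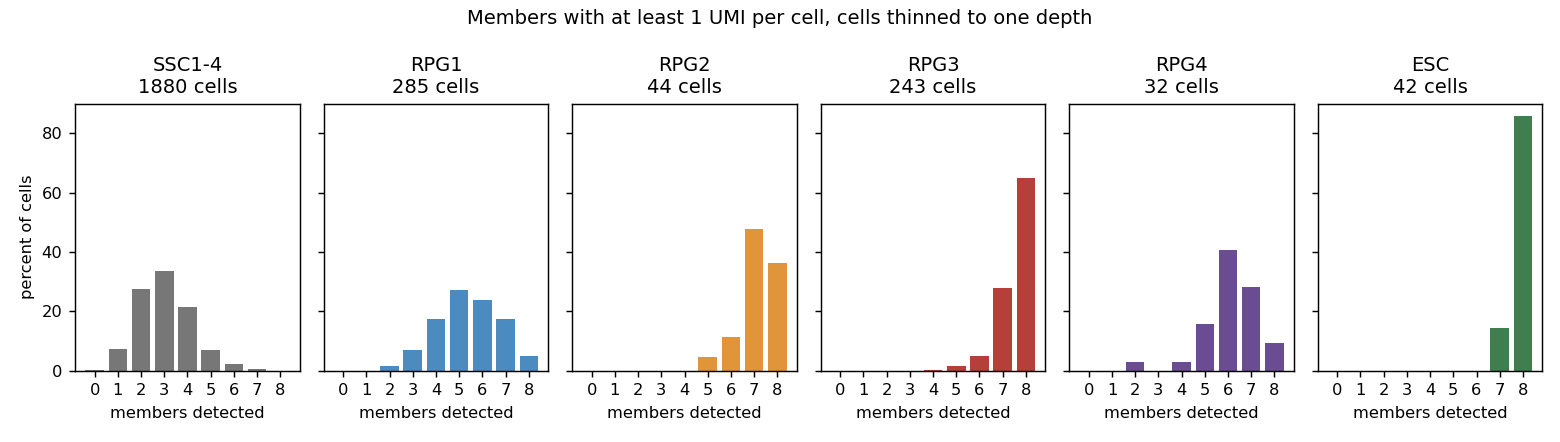
Percent of cells (y axis) by the number of members with at least 1 UMI (x axis, 0 to 8) in 6 classes, all cells thinned to 100000 UMIs. The distribution moves from a median of 3 in SSC1-4 over 5 in RPG1 and 7 in RPG2 to 8 in RPG3 and ESCs, and lies at 6 in RPG4.

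In RPG1 *Nanog* and *Sox2* were the usual pair. Of 285 cells, 105 (36.8%) held *Nanog* and *Sox2* without *Pou5f1*, 50 (17.5%) held *Sox2* alone, 36 (12.6%) *Nanog* alone, 33 (11.6%) none of the 3 core genes and 39 (13.7%) all 3, and *Pou5f1* alone was in 6. In RPG2 all 44 cells held *Nanog* and *Sox2*, and 21 of them lacked *Pou5f1*. In SSC1-4, 1011 of 1880 cells held no core gene, 383 *Sox2* alone, 211 *Pou5f1* alone and 75 *Nanog* alone, and 23 (1.22%) held all 3. All 3 were found in 184 of 243 RPG3 cells (75.7%), 21 of 32 RPG4 cells (65.6%) and 36 of 42 ESCs.

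In RPG1, RPG2, RPG3 and ESCs *Pou5f1* was the member most often missing. Among cells with exactly 7 members it was the missing one in 34 of 50 RPG1 cells, 16 of 21 RPG2 cells, 40 of 68 RPG3 cells and all 6 such ESCs. In RPG4 it was never the missing one (0 of 9 cells), where *Nr0b1* was missing in 6 and *Fbxo15* in 3. In SSC1-4 *Nr0b1* was the missing one in 5 of 9 such cells and *Pou5f1* in 1, and over all 1880 cells *Nr0b1* was found in 2.87% and *Pou5f1* in 17.8%. Since ESCs, in which OCT4 is a defining factor, had *Pou5f1* in 85.7% of cells and the other 7 members in 100%, absence of a *Pou5f1* UMI at this depth does not show absence of the transcript, and without thinning *Pou5f1* was found in 38.1% of RPG1 and 76.6% of RPG2 cells instead of 21.4% and 52.3%.

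Pairs of members were compared with the number of cells their separate shares would give within the same library. A member found in over 95% of the cells of a class holds the ratio of observed to expected cells near 1 in advance, which applied to 13 of the 28 pairs in RPG1 (those with *Sall4* or *Utf1*), 25 in RPG2 and 27 in RPG3, so in the latter classes the ratios say little about co-expression. Over the other 15 pairs in RPG1 the ratio was 0.951 to 1.08. In RPG1, 144 cells held *Nanog* and *Sox2* where 137 were expected, and 46 held *Pou5f1* and *Nanog* where 42.9 were expected. In SSC1-4, where several members are rare, the ratio ran from 0.765 to 1.6, and in the shallower scTrio-seq2 cells from 0 to 1.68 in 5C RPG1 (70 cells) and from 0 to 2.69 in DMSO SSC1-4 (146 cells).

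The share of cells with a member also differed with the library. In SSC1-4 cells from libraries with at least 5 RPG2, RPG3 or RPG4 cells (151 cells), *Nanog* was found in 56.3%, *Sox2* in 64.2%, *Zscan10* in 33.8%, *Nr0b1* in 18.5% and *Utf1* in 94.0%, and in those from libraries with none (1725 cells) in 5.86%, 27.2%, 12.3%, 1.51% and 67.9%. Single libraries varied: over the 27 without such cells that kept at least 5 SSC1-4 cells *Sox2* ran from 3.70 to 74.0%, *Nanog* from 0 to 26%, *Utf1* from 38.6 to 90.4%, *Zscan10* from 0 to 30.2% and *Nr0b1* from 0 to 12.3%, with the highest *Sox2*, *Nanog* and *Utf1* shares in day 18 replicate 2. Over the 4 with such cells these were 57.4 to 70.3%, 47.4 to 66.7%, 90.6 to 100%, 22.2 to 42.2% and 6.38 to 25%, so *Sox2*, *Zscan10* and *Nr0b1* overlapped. RPG1 cells held *Nanog* in 65.6%, *Sox2* in 71.2%, *Zscan10* in 55.4%, *Nr0b1* in 47.0% and *Utf1* in 98.9%. *Pou5f1* (11.9% and 18.3%), *Fbxo15* (54.3% and 57.9%) and *Sall4* (98.7% and 98.4%) did not show this in SSC1-4, and RPG1 had 21.4%, 77.2% and 100%. Cells of the neural class had *Nanog* in 35.7% of 14 cells in the former libraries and in 3.79% of 264 in the latter. Their spermatogonial markers summed to 1078 to 2235 CPM over 12 libraries, and whether cells of this class express *Nanog* themselves was not tested. Where the *Nanog* UMIs of the SSC1-4, neural and RPG1 cells came from was not tested either.

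**Figure D4:**
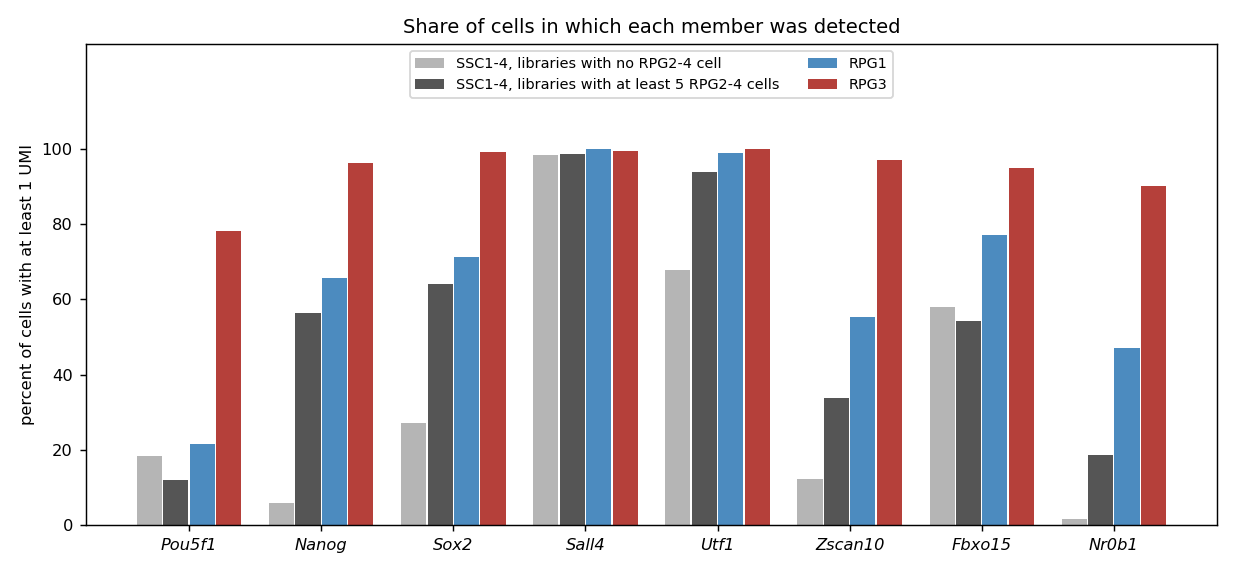
Percent of cells with at least 1 UMI of each gene (y axis, thinned to 100000 UMIs) in SSC1-4 cells of libraries without any RPG2-4 cell (light grey), SSC1-4 cells of libraries with at least 5 RPG2-4 cells (dark grey), RPG1 (blue) and RPG3 (red). For *Nanog* the bars stand at 5.86, 56.3, 65.6 and 96.3%.

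In early-pluripotent cells no member was called against SSC1-4, and they were not tested against RPG1. In their 3 libraries (day 12 replicate 2, day 14 replicate 3 and day 18 replicate 4) *Sox2* had 55.4, 15.7 and 113 CPM, *Nanog* 8.55, 0.883 and 2.1 and *Nr0b1* 6.57, 1.06 and 0.258. Against SSC1-4 0 of 8 members were called (edgeR), where 0.105% of 18035 genes were called higher and 0.111% lower, while 2 members and 3134 genes had an unadjusted p under 0.05 and DESeq2 also called 0 members. *Sox2* came nearest (log2 fold change 1.69, SE 0.57, adjusted p = 0.105), and *Nr0b1* had 2.62 (adjusted p = 0.254). The highest *Nanog* and *Nr0b1* values came from day 12 replicate 2, which also held 15 cells of RPG2 and RPG3, and there *Sox2* was found in 85.3%, *Nanog* in 60.0% and *Nr0b1* in 49.3% of 75 early-pluripotent cells. In the 85 cells of day 18 replicate 4 these shares were 96.5%, 14.1% and 2.35%. Of these cells 41.6% held 5 or more members and 1 of 190 all 8, with a median of 4.

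In the pluripotent lines, with 1 library each and no test, values are given in CPM of the library total with exact Poisson intervals that cover counting error only, beside the range of RPG3 on the same scale. *Nanog* stood at 342 CPM in gPSC passage 1, 439 in passage 15 and 521 in ESCs, above the RPG3 range of 123 to 210. *Sox2* had 307, 473 and 174 CPM (RPG3 220 to 315), so passage 15 was above and ESCs below that range. *Utf1* had 511, 247 and 250 CPM (RPG3 544 to 839), all below it. *Pou5f1* had 48.4 CPM in passage 1 (44.8 to 52.2), 32 in passage 15 and 32.6 in ESCs, inside the RPG3 range of 16.5 to 78.9, and *Nr0b1* (331, 265 and 288 against 145 to 351), *Sall4* (237, 285 and 201 against 158 to 300) and *Zscan10* (197, 158 and 174 against 121 to 211) were inside their ranges too. *Fbxo15* had 217, 216 and 203 CPM against 142 to 212.

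Under 5C, *Sox2* and *Nr0b1* were higher in cells still classed as SSC1-4 than under DMSO. *Nr0b1* was at 3.55, 6.18, 3.14, 1.66, 10.3, 12, 5.76 and 5.40 CPM in 5C samples 1 to 8 and at 0 in all 3 DMSO samples (3, 4 and 5), whose 12626564 UMIs together set a limit of 0.238 CPM at 3 counts. With a 5C mean of 6.00 ± 3.55 CPM this is at least 25.3-fold higher (edgeR adjusted p = 0.00126). *Sox2* had 172, 70.9, 187, 60.9, 54.0, 75.1, 91.2 and 86.7 CPM under 5C and 5.87, 27.6 and 31.9 under DMSO, a log2 fold change of 2.24 (SE 0.42, adjusted p = 0.000455). Neither gene overlapped between the groups, and neither did 7.75% of all genes tested that stood higher and 9.71% that stood lower.

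*Nanog* and *Fbxo15*, whose groups did not overlap either, did not pass the p threshold. *Nanog* had 10.4, 9.58, 1.05, 1.04, 6.89, 9.61, 10.1 and 13.4 CPM under 5C and 0.881, 0 and 0.938 under DMSO (log2 fold change 3.54, SE 1.05, adjusted p = 0.0174). *Zscan10* had 2.24 (adjusted p = 0.0958), and *Pou5f1* (-1.46, adjusted p = 0.196), *Fbxo15* (5.62 to 23 against 25.5 to 33.3 CPM, log2 fold change -1.19, adjusted p = 0.0277), *Utf1* (-1.10, adjusted p = 0.0529) and *Sall4* (0.13, adjusted p = 0.679) were not called. Thus 2 of 8 members were called higher and 0 lower, against 2.45% and 2.53% of 12291 genes, with a median log2 fold change of 1.19 over the members and 0.02 over all genes. As in the original condition the samples differ in what else they held: 6 of the 8 5C samples held 7 to 59 RPG2, RPG3 or RPG4 cells and the 3 DMSO samples none. In the 2 5C samples without such cells (2 and 4) *Nr0b1* was at 6.18 and 1.66 CPM and *Sox2* at 70.9 and 60.9, still above the DMSO samples, and with these 2 alone 0 members were called (*Sox2* 1.62, adjusted p = 0.028; *Nr0b1* did not pass the filter). Of the spermatogonial markers in SSC1-4, *Etv5* (3.35) and *Id4* (1.78) were called higher under 5C and *Sohlh1* (-1.55) lower, of 8 tested, and their sums overlapped (2010 to 2599 CPM under 5C, 2194 to 2503 under DMSO). Of the fibroblast markers *Col1a1* (-1.65) was lower, of 3 tested (sums of 7.20 to 42.2 and 33.5 to 69.7 CPM), and of the pluripotency markers outside the members *Tdgf1* was higher, of 8 (271 to 592 and 316 to 339 CPM). The part of these in the members' values was not tested.

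In RPG1 under 5C, *Utf1* was lower. It had 55.3, 97.3, 57.0 and 55.0 CPM in 5C samples 2, 5, 6 and 8 and 164 and 232 in DMSO samples 1 and 2, a log2 fold change of -1.65 (SE 0.35, adjusted p = 0.00552). It was the 1 of 7 tested members called, against 0.588% of 9351 genes called lower and 0.385% higher, and the median was -0.68 over these members and 0.09 over all genes. The call was lost when any of 5C samples 2, 6 and 8 or DMSO sample 2 was left out (adjusted p = 0.0192 to 0.0771). The 2 DMSO samples also held 80 and 76 RPG2, RPG3 or RPG4 cells and the 4 5C samples 0, 59, 12 and 18, and the 8 pluripotency markers outside the members summed to 1243 and 1540 CPM in RPG1 under DMSO and to 415 to 784 under 5C. The part of these in the *Utf1* value was not tested. *Fbxo15* was not called, at 9.34 to 31.6 CPM under 5C and 32.2 and 51.1 under DMSO. Like *Utf1* it did not overlap between the groups, where 13.5% of the genes tested stood lower without overlap. *Pou5f1* was not tested, with 4.11 to 7.34 CPM under 5C and 0 and 11.6 under DMSO.

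In RPG3, edgeR called no member between 5C and DMSO, where 1.23% of 11427 genes were called higher and 1.17% lower, while 5 members and 3341 genes had an unadjusted p under 0.05 and DESeq2 also called 0 members. Of the members, 4 passed the p threshold with folds below 2.72. *Utf1* had 873, 697, 1194, 1050, 824 and 810 CPM in 5C samples 1, 3, 5, 6, 7 and 8 and 2076 and 2025 in DMSO samples 1 and 2 (log2 fold change -1.14, SE 0.15, adjusted p = 0.000137). *Sox2* had 702, 513, 643, 550, 899 and 617 CPM against 335 and 362 (0.95, SE 0.18, adjusted p = 0.00244). *Sall4* was at 340 to 452 against 207 and 271 CPM (0.83, adjusted p = 0.00728), and *Nanog* at 261, 195, 286, 282, 284 and 280 against 453 and 434 CPM (-0.70, adjusted p = 0.0089). In none of these 4, nor in *Fbxo15*, did the groups overlap, which with 2 DMSO samples also held for 31.1% of all genes tested. *Pou5f1* (-0.74), *Zscan10* (-0.09) and *Nr0b1* (0.06) had adjusted p of 0.306, 0.886 and 0.906, *Fbxo15* had -0.87 (adjusted p = 0.0209), and the median was -0.39 over the members and 0.08 over all genes. Markers moved with these values. The spermatogonial markers in RPG3 summed to 498 to 846 CPM under 5C and 420 and 441 under DMSO, with a median log2 fold change of 1.43 over the 7 tested, of which *Dazl* was called higher (1.72, adjusted p = 0.00474). The pluripotency markers outside the members summed to 3138 to 6481 CPM under 5C and 9852 and 10395 under DMSO, with 2 of 8 called lower. Their part in the members' values was not tested.

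**Figure D5:**
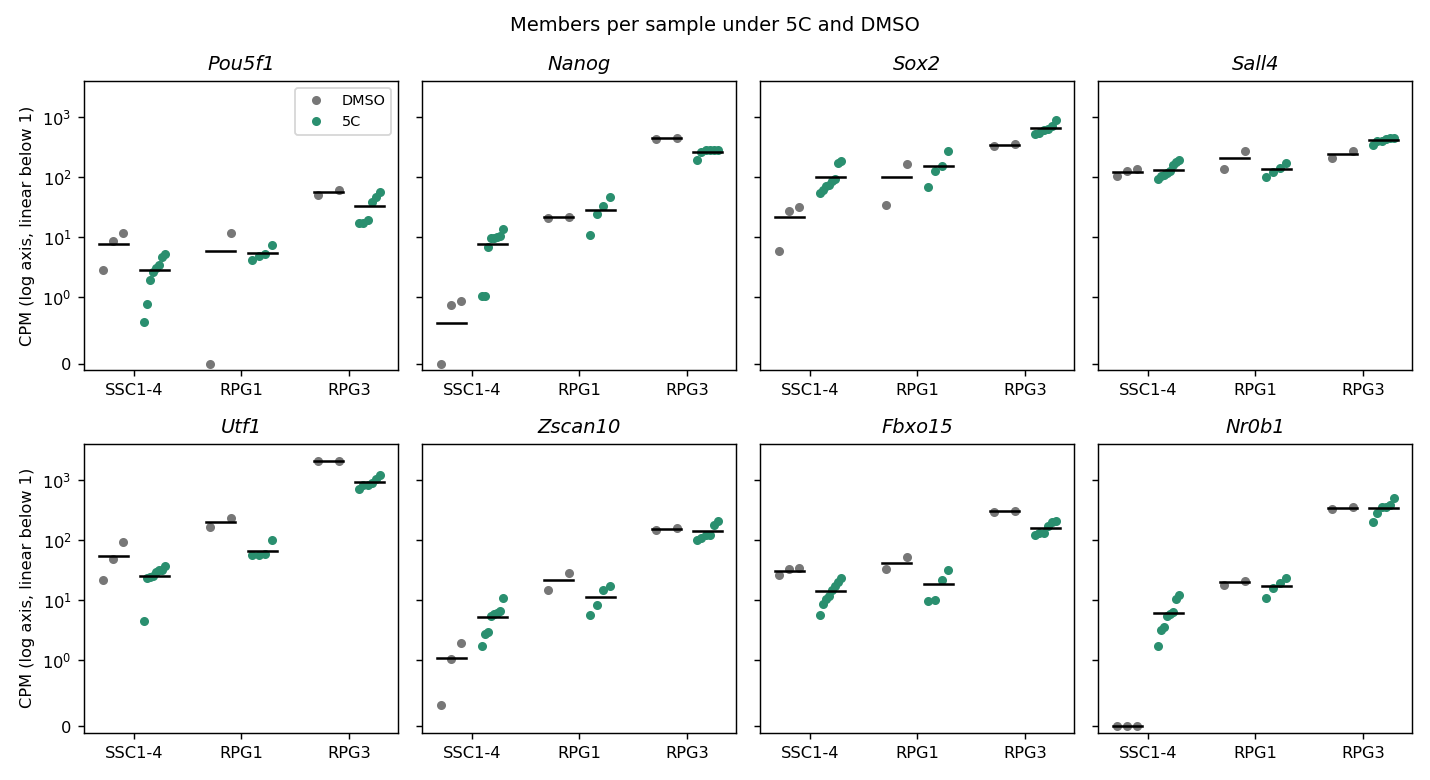
CPM of each gene (TMM scaled, log axis that is linear below 1) per scTrio-seq2 sample in SSC1-4, RPG1 and RPG3, DMSO in grey and 5C in green, sorted by value, with the mean as a line. *Nr0b1* is at 0 in the 3 DMSO SSC1-4 samples and at 1.66 to 12 CPM under 5C, and *Utf1* in RPG3 is at 697 to 1194 CPM under 5C and at 2025 and 2076 under DMSO.

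Per cell, thinned to 30000 UMIs, 5C SSC1-4 cells held a median of 3 members (303 cells) and DMSO SSC1-4 cells 2 (146 cells). *Sox2* was found in 72.9% and 16.4% of them, *Nanog* in 18.2% and 3.42% and *Nr0b1* in 13.2% and 0 of 146, which allows a share of up to 2.05% of cells with a UMI. Under 5C, cells classed as meiotic held *Nanog* in 9 of 16 cells, and *Nr0b1* in 4 and *Sox2* in 10 of them. Cells of the neural class under 5C held *Nanog* in 3 of 14, *Nr0b1* in 1 and *Sox2* in 8. The 5C SSC1-4 shares of *Nanog* and *Nr0b1* thus lay below those of the meiotic class, that of *Nr0b1* above the neural class, and that of *Sox2* above both, with 14 and 16 cells behind these. RPG3 cells had a median of 7 in both arms, with all 8 in 32.3% of 133 5C cells and 27.6% of 134 DMSO cells.

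The 20 further pluripotency genes, a list fixed for this description, had a median log2 fold change of 0.48 in RPG1, 3.87 in RPG2 and -0.31 in RPG3, each against the class before. In RPG1 5 of 19 tested were called higher, namely *Fgf4* (log2 fold change 4.37), *Tdgf1* (4.24), *L1td1* (4.13), *Otx2* (3.83) and *Dppa5a* (1.45). As for the members, these calls were not kept in fits on a few SSC1-4 libraries, which called 0 of 14696 and 1 of 13857 genes. The choice of cells and the smaller number of libraries cannot be told apart there. Against the 4 SSC1-4 libraries with at least 5 RPG2, RPG3 or RPG4 cells, edgeR called 0 of 19 of them (5 at an unadjusted p under 0.05), with 2.03 for *Fgf4*, 1.81 for *Tdgf1*, 2.01 for *L1td1*, 1.90 for *Otx2* and 0.99 for *Dppa5a*. With the library as a block 0 of 18 were called (1 at an unadjusted p under 0.05), and these 5 lay between -0.0091 and 0.62. As percents of RPG3 in SSC1-4 and RPG1 of day 20 replicate 8, *Fgf4* stood at 1.52 and 1.59, *Tdgf1* at 4.48 and 4.83, *L1td1* at 1.32 and 2.16, *Otx2* at 1.31 and 2.52 and *Dppa5a* at 10.9 and 8.35. In day 23 replicate 1 these were 1.88 and 2.41, 5.19 and 6.20, 1.94 and 1.98, 1.55 and 1.91, and 9.36 and 11.9, so RPG1 was the higher in 9 of the 10 pairs. In RPG2 18 of 20 rose, led by *Prdm14* (6.29), *Klf2* (5.02), *Esrrb* (4.87), *Tfcp2l1* (4.82), *Gdf3* (4.63) and *Lefty1* (4.33), and *Otx2* and *Lin28a* were not called. From RPG2 to RPG3 2 of 20 were called, *Otx2* (6.73, SE 0.76, adjusted p = 0.000109), a factor of the primed epiblast, and *Fgf4* (1.93), while *Prdm14*, a repressor of DNA methylation genes in naive cells, had -2.72 (adjusted p = 0.0171).

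In RPG4 13 of these 20 genes fell, with *Dppa2* (-5.73), *Dppa3* (-5.61), *Tfcp2l1* (-5.54), *Tbx3* (-5.25), *Esrrb* (-5.06) and *Dppa4* (-4.61) first. Their median of -4.20 stands beside -0.74 for the 8 members, of which *Nr0b1* (-6.35) fell further than any of the 13 and *Fbxo15* (-5.33) lay among them. *Sox2* (-1.61) fell less than the 13, which ended with *Klf5* (-2.27), and *Utf1*, *Nanog*, *Pou5f1*, *Sall4* and *Zscan10* were not called. In early-pluripotent cells 0 of 20 were called by edgeR, with 3 at an unadjusted p under 0.05.

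Under 5C, *Tdgf1* (log2 fold change 6.55) and *L1td1*, which was at 0 in all DMSO samples, were higher in SSC1-4 and *Dppa3* lower (-2.82), of 16 tested. *Dppa5a* (-2.04) and *Tdgf1* (-1.90) were lower in RPG1, of 17 tested. In RPG3 *Nr5a2* (2.36) and *Klf4* (1.77) were higher and *Otx2* (-2.88), *Tdgf1* (-1.65) and *Dppa5a* (-1.57) lower, of 20 tested.

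Paralogues of the core factors had a median log2 fold change of 0.34 in RPG1 and -0.01 in RPG2, where the members had 1.38 and 2.99. In RPG2, *Pou2f3* (4.50), *Sox15* (4.39) and *Sall1* (2.1) rose and *Sall3* (-2.71) and *Pou3f1* (-1.89) fell, of 8 tested, and in RPG1 *Sox3* was lower (-1.95). *Sox15* fell again in RPG4 (-4.35), the 1 of 10 called, and 0 of 9 were called in RPG3 (3 at an unadjusted p under 0.05) and 0 of 10 in the early-pluripotent cells (6). In SSC1-4 under 5C, *Sall2* (5.91), *Sall3* (2.53) and *Pou2f1* (1.5) were higher and *Sox3* lower (-2.57), of 7 tested, and 0 were called in RPG1 (of 6) or RPG3 (of 7).

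Across the 56 sums of SSC1-4 and RPG1 to RPG4, 36 of which are SSC1-4, the genes most like the mean of the 8 members were *Gstm2* and *Ak1* (Pearson r of log2(CPM + 1) 0.967 each), *Etl4* (0.967), *Aoah* (0.966) and *Fgf4* (0.962), out of 19129. *Nanog* was most like *L1td1* (0.963) and *Cbs* (0.955), *Sox2* most like *Idh2* (0.922), *Mkrn1* (0.909) and its fellow member *Utf1* (0.905), and *Pou5f1* most like *Pet100* (0.863), *H2afj* (0.848) and *Tuba1b* (0.847). The sums share libraries and depth, and these r describe them without a test.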

How the data were processed

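For STRT-seq and for the RNA of scTrio-seq2, the files that the authors deposited hold unscaled UMI counts, with genes in rows and cells in columns. Per the labels and the study's methods, reads were aligned to mm10 with STAR 2.7.2b and assigned with featureCounts 2.0.0. Cell classes were the authors' clusters and, for scTrio-seq2, their scPred predictions, and 80 barcodes without an annotation were left out. The 8 genes, the lists and the tests were chosen with earlier results of these data known.

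Counts were summed per library (or sample) and class with at least 5 cells and tested with edgeR 4.0.16 in R 4.3.3 (TMM, filterByExpr, quasi-likelihood, 2 classes per fit, no covariate), with Benjamini-Hochberg adjustment over all genes tested. A gene was called at an adjusted p below 0.01 and a natural-log fold change of at least 1 in size (2.72-fold). The SEs given with edgeR are the size of the log2 fold change over the square root of its F statistic. They are approximate, above all where the fold change is small. Per-cell detection used counts drawn without replacement to 100000 UMIs (STRT-seq) or 30000 UMIs (scTrio-seq2), so that depth was equal. Medians were 258484 and 76179 UMIs per cell before thinning. Intervals and limits at 3 counts cover counting error only. Doublets were not called, since cells had been picked singly. Not every member was named in every comparison, and of the lists at most 6 called genes by fold were named. DESeq2 1.42.0, other scalings, filters, cell minimums, batches and left-out libraries were tried as alternatives. Scripts were tested on simulated data. Promoters came from RefSeq. Python 3.11.15, numpy 2.4.6, pandas 2.3.3 and scipy 1.17.1 were used. Methylation data were not analysed here.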

Additional observations from a re-analysis of the deposited data

Results flagged for a closer look

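In 5 of the 40 groups of 4 to 10 samples that were examined, 1 sample stood far from the rest by Dixon's criterion, which chance alone would give in about 1 in 20 groups. *Nanog* in RPG1 reached 29.4 CPM in day 18 replicate 5, where the other 6 libraries had 7.03 to 13.3 CPM. *Sox2* in RPG1 reached 169 CPM in day 18 replicate 3, where the others had 26.7 to 79.1 CPM. Both libraries belong to batch B2, which gave only these 2 of the 7 RPG1 libraries.

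Under 5C, *Utf1* in RPG1 was at 97.3 CPM in sample 5 (11 cells) and at 55.0 to 57.0 CPM in the other 3. *Nanog* in RPG3 was at 195 CPM in sample 3 (7 cells) and at 261 to 286 CPM in the other 5. *Utf1* in SSC1-4 was at 4.36 CPM in sample 4 (74 cells) and at 23 to 36 CPM in the other 7.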

How the results depend on the processing

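The calls over the 8 members in RPG1 moved in several alternatives. Against 4 called, there were 2 with sums per batch and day, 2 with batch as a covariate, 0 with the replicate block (the library, held in common by 2 pairs), 0 against SSC1-4 of libraries with at least 5 RPG2-4 cells, 1 in batch B1 alone and 0 in batch B2 alone, and 1 (without day 18 replicate 5) to 4 when 1 library was left out (2 without day 18 replicate 3 or day 20 replicate 2). DESeq2 called 3. In that comparison *Pou5f1* turned to -0.36 with sums per batch and day and ran from -0.074 to 0.26 with 1 library left out, *Sall4* turned to 0.11 with sums per batch and day, 0.11 with the replicate block, 0.049 against the libraries with RPG2-4 cells and 0.070 in batch B2, and with the replicate block *Utf1* was at -0.39, *Zscan10* at -0.21 and *Fbxo15* at -0.12 (log2). The 8 calls in RPG2 became 5 with sums per batch and day, 6 with batch as a covariate and 4 in batch B2, with no member changing direction in any of the 18 alternatives. In RPG3 against RPG2 *Pou5f1* was at -0.082 with sums per batch and day and from -0.36 to 0.86 with 1 library left out.

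In early-pluripotent cells the replicate block gave 0.78 for *Pou5f1*, -0.45 for *Nanog*, 0.22 for *Sall4*, 0.18 for *Utf1* and 0.52 for *Fbxo15*, batch B2 gave -0.59 for *Nanog* and 0.20 for *Fbxo15*, batch as a covariate gave -0.58 and 0.17, and with 1 library left out *Nanog* ran from -0.56 to 1.26 and *Fbxo15* from -0.050 to 0.012. In SSC1-4 under 5C the 2 calls became 0 with the replicate block and 0 with the 5C samples that held no RPG2-4 cell, 3 by DESeq2, and *Sall4* was at -0.012 with at least 3 cells per sum and -0.15 with those samples. The replicate numbers of 5C and DMSO only share a number: deviations of same-numbered samples correlated at 0.132, 0.009 and -0.017 over 5490 genes. In RPG1 under 5C the 1 call became 0 with at least 3 cells per sum, where *Nanog* was at -0.041, and 0 to 1 with 1 sample left out, where *Sox2* ran from -0.16 to 2.13. In RPG3 under 5C, *Zscan10* ran from -0.25 to 0.0028 and *Nr0b1* from -0.041 to 0.19 with 1 sample left out. The median number of members in DMSO SSC1-4 cells was 1 at 2 or more UMIs. With TMM the summed CPM of the members was 2528 in gPSC passage 1, 2179 in passage 15 and 2012 in ESCs, against 2191, 2114 and 1844 on library totals. The cause of these changes was not tested.

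Over all genes the number of calls ran from 0 to 491 in RPG1 (160 as reported), 398 to 3022 in RPG2 (2323), 2 to 550 in RPG3 (140), 185 to 904 in RPG4 (472), 0 to 271 in early-pluripotent cells (39), 383 to 789 in SSC1-4 under 5C (612), 33 to 202 in RPG1 under 5C (91) and 41 to 513 in RPG3 under 5C (274). For RPG2, RPG3, RPG4 and the early-pluripotent cells only 1 of the 2 classes held both batches. Batch as a covariate there left 0 of the 8 members called in RPG3, 3 in RPG4 and 0 in early-pluripotent cells. The replicate block was not run for RPG2, RPG3 and the 5C comparisons in RPG1 and RPG3, where fewer than 2 libraries or numbers were shared. These covariate fits, the fits within 1 batch and the 5C samples without RPG2-4 cells were chosen after seeing the data. Depth limits detection: in RPG1 it moved from 10.6% at 30000 UMIs to 38.1% without thinning for *Pou5f1*, from 16.6% to 64.3% for *Nr0b1* and from 27.8% to 80.5% for *Nanog*.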
